A study of Mus musculus with 8 samples.

Results

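The cell division cycle was followed through 43 genes in heart ventricle under pressure load. The genes were taken by name from 3 phases: 13 genes of the G1 phase and of the entry into S phase, 11 genes of DNA replication, and 19 genes of mitosis. A gene was read from the probe sets that the platform annotation assigns to that gene symbol alone, and of several such probe sets the one with the highest mean over all 8 arrays was kept. This gave values for 42 genes of 18193 on the array; Ccnb1, which encodes cyclin B1, had no such probe set here. Of the 42 genes, 30 lay above a log2 value of 5 on at least 4 of the 8 arrays and entered the tests, which ran over 9607 genes in all. These 30 were 12 of 13 genes of the G1/S class, 8 of 11 of the S phase class and 10 of 18 of the mitotic class.

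The samples were total RNA of heart ventricle from male FVB mice, an inbred strain, aged 8 to 12 weeks. All of them had undergone ascending aortic banding, in which a constriction on the aorta raises the pressure that the left ventricle works against, 1 week earlier. A group of 4 samples came from mice with a CHF1/Hey2 transgene specific to the myocardium (mlc2v promoter) and a group of 4 from wild-type mice, and each sample was hybridised to 1 Affymetrix Mouse Genome 430 2.0 array. CHF1/Hey2 is a repressor of transcription that acts below Notch signalling. No heart without banding was analysed here, and none of the values measures a response to the operation. The labels do not say whether a sample pooled animals or whether the transgenic mice came from 1 founder line, and p-values measure the spread between these samples only.

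In the adult mouse heart nearly all cardiomyocytes have left the cell cycle, and most dividing cells of a loaded ventricle are fibroblasts, endothelial cells and macrophages. Cyclin D with Cdk4 or Cdk6 starts the cycle by phosphorylating the retinoblastoma protein, which frees E2F factors to switch on replication genes. A second wave of genes for chromosome segregation and cell division follows in G2 and mitosis, held down in resting cells by the DREAM complex and switched on by B-Myb and FoxM1. Inhibitors such as p21 and p27 stop cyclin-dependent kinases at either step.

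The mitotic genes varied several-fold from array to array within each group, and no member passed the test of a difference between the groups. Of the 30 members tested, 0 passed limma's test at an adjusted p under 0.05, as did 0 of all 9607 genes (0%). Without adjustment, limma gave a p under 0.05 for 0 members as well, against 153 of all genes (1.59%). A test that allows unequal variances gave 0 members with and 0 without adjustment. The values of the 2 groups overlapped in all 42 members, while 238 of the 9607 genes tested (2.48%) and 272 of all 18193 (1.5%) had groups that did not overlap. Of those 238, 192 were higher (2%) and 46 lower (0.479%) in the arrays labelled transgenic. The median 95% confidence interval over all genes tested, which is not adjusted, was the difference plus or minus 0.606 log2 units. With 4 arrays per group the adjusted test also missed most larger differences near 1. On simulated data it recovered 31 of 100 genes given a change of 1. Those genes came from all genes tested, noise was independent between genes, and 100 other genes were given a change of 2. Most mitotic members tested had wider intervals than the median gene, such as Cdk1 with -1.76 to 1.05. The share recovered is therefore not one for these members.

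**Figure D1:**
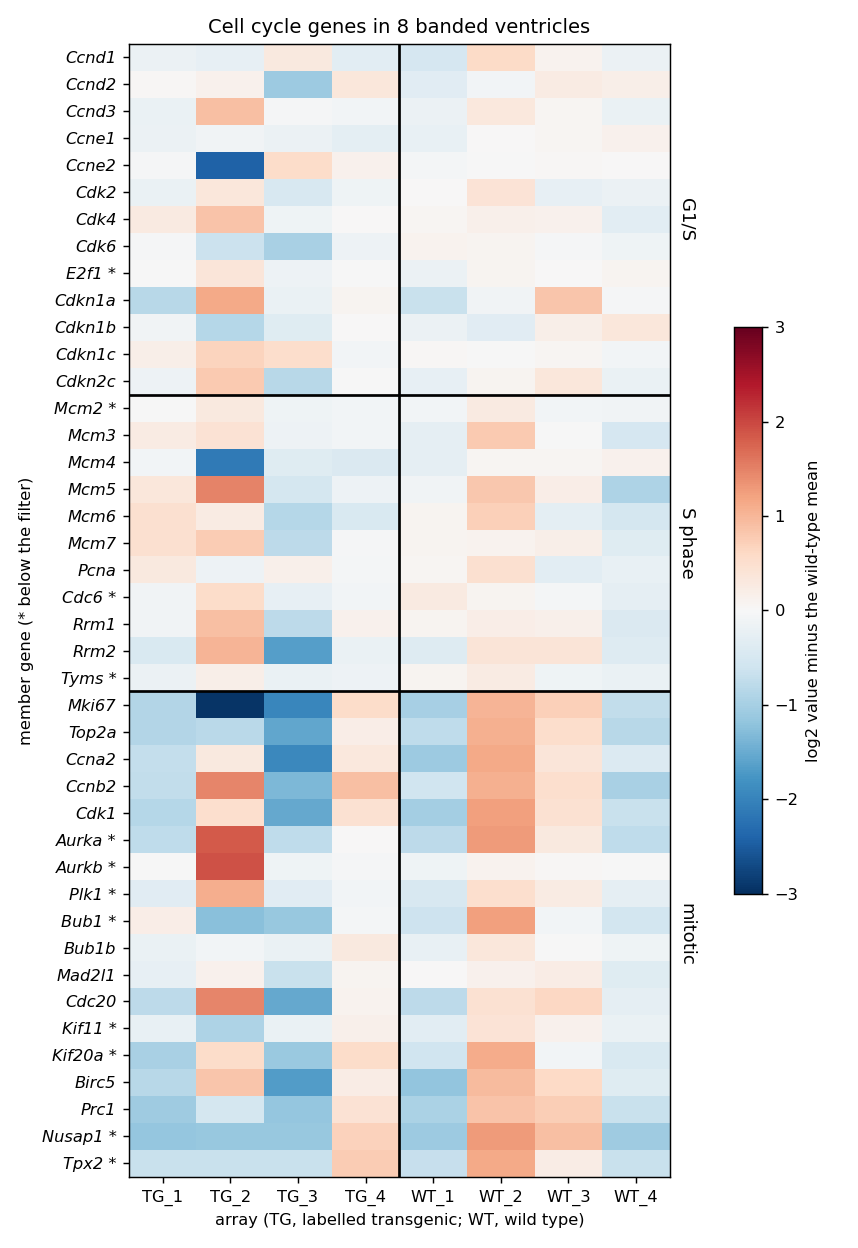
Log2 value of each of the 42 member genes (rows, by class; an asterisk marks the 12 genes below the filter) on each of the 8 arrays (columns, TG labelled transgenic and WT wild type), minus the wild-type mean of that gene; red is higher and blue lower. Most mitotic rows are red in WT_2, WT_3 and TG_4 and blue in TG_1, TG_3, WT_1 and WT_4, a pattern that does not follow the boundary between the groups.

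The arrays did not stand equally close to each other. In transgenic replicate 2, 37.2% of the genes tested were more than 2-fold away from their median in the remaining 7 arrays. For the members, with those below the filter included, this count was 16 of 42 (38.1%), 12 higher and 4 lower. Transgenic replicate 3 had 9.27% of all genes and 10 members beyond 2-fold, and all 10 of these members were lower. In the other 6 arrays 72 to 149 of the genes tested lay that far out. Of the 42 members, 13 did so in wild-type replicate 2, 8 in transgenic replicate 4 and 7 in wild-type replicate 3, all of them higher, and 3 or 4, all lower, in each of the 3 arrays left. Hey2 did not have a higher mean in the transgenic group, so the groups carry their labels here without a check on the transgene. As checks on the labelled tissue, all 8 cardiomyocyte markers were above the filter, as were all 9 fibroblast, 10 macrophage, 7 endothelial and 6 smooth muscle and pericyte markers, whereas 1 of 4 erythroid and 0 of 5 lymphocyte markers were, the latter with a highest single value of 4.62.

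The 13 genes of the G1/S class, which carry a resting cell to the start of replication, had a median difference (transgenic minus wild type) of -0.11 on the log2 scale, with 5 genes higher and 8 lower. The median over all 18193 genes was 0.03. The class median was 0.12 when transgenic replicate 3 was left out and 0.01 when wild-type replicate 2 was, so its sign depended on either array. In bulk tissue such a value cannot tell fewer cells of a type from less RNA per cell.

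The D-type cyclins, the growth-responsive partners of Cdk4 and Cdk6, were above the filter on all 8 arrays. Ccnd1, which encodes cyclin D1, had log2 values, in the order of replicates 1 to 4, of 9.23, 9.17, 9.72 and 9.11 in the arrays labelled transgenic and of 8.92, 10.004, 9.51 and 9.24 in the wild type. The wild-type arrays held both its lowest and its highest value, and the difference was -0.11 (SE 0.260), or 0.09 without wild-type replicate 2. Ccnd2, which encodes cyclin D2, had 10.76, 10.85, 9.64 and 11.06 in the arrays labelled transgenic and 10.39, 10.65, 10.97 and 10.90 in the wild type, a difference of -0.15 (SE 0.317). Transgenic replicate 3 alone lay below the wild-type range, and without it the difference was 0.16. Ccnd3, which encodes cyclin D3, had 9.98, 11.09, 10.15 and 10.09 against 10.01, 10.51, 10.24 and 9.97, with transgenic replicate 2 above all other arrays. Its difference was 0.15 (SE 0.272), and -0.11 without that array.

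Cdk4 and Cdk6 are the kinases that the D-type cyclins activate. Cdk4 had values of 9.28, 9.85, 8.89 and 9.02 in the arrays labelled transgenic and of 9.06, 9.15, 9.13 and 8.69 in the wild type, a difference of 0.25 (SE 0.241) that was 0.05 in the absence of transgenic replicate 2. Cdk6 had 9.02, 8.40, 8.08 and 8.90 against 9.16, 9.12, 9.01 and 8.91. Transgenic replicates 2 and 3 were low, replicate 4 lay just under the wild-type range and replicate 1 inside it. The group means of Cdk6 were 8.60 ± 0.44 and 9.05 ± 0.11 (SD, n = 4 each), and the difference of -0.45 (95% confidence interval -0.98 to 0.07) had the smallest unadjusted p of the 30 members, 0.082, with an adjusted limma p of 0.813 and an exact two-sided permutation p of 0.0857. The smallest p that 4 against 4 arrays allow in that permutation test is 0.0286. Without transgenic replicates 2 and 3 the difference of Cdk6 was -0.09.

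The E-type cyclins, which activate Cdk2 at the start of S phase, were close to the filter. Ccne2 passed it most narrowly, with 4.94, 2.54, 5.53 and 5.12 in the arrays labelled transgenic and 4.92, 4.97, 5.02 and 5.0 in the wild type. Apart from transgenic replicate 2 its values lay between 4.92 and 5.53, and without that array its difference went from -0.44 to 0.22. Ccne1 had 5.32, 5.40, 5.34 and 5.22 against 5.28, 5.53, 5.58 and 5.65, a difference of -0.19 (SE 0.151; limma, adjusted p = 0.813). That Ccne1 probe set is of a design that can match other transcripts. A second one, below 5 on every array, differed by 0.29. Cdk2 itself differed by -0.11. E2f1, the transcription factor that drives replication genes, was below the filter, with 3.53, 3.91, 3.40 and 3.55 against 3.37, 3.64, 3.56 and 3.63.

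The inhibitors of cyclin-dependent kinases split 2 and 2 by sign. Cdkn1a, which encodes p21, had 9.56, 11.53, 10.19 and 10.48 in the arrays labelled transgenic and 9.72, 10.28, 11.22 and 10.35 in the wild type. Both groups contained a high array and a low one, a spread of 2.82-fold among the wild-type arrays, and the means differed by 0.05 (SE 0.450), with values from -0.31 to 0.34 when single arrays were left out. Cdkn1b, which encodes p27, had 9.28, 8.54, 9.01 and 9.40 against 9.20, 9.05, 9.57 and 9.71, a difference of -0.33 (SE 0.245; limma, adjusted p = 0.813). Cdkn1c, which encodes p57, had 6.19, 6.69, 6.55 and 5.95 against 6.06, 6.01, 6.08 and 5.95. Its wild-type arrays lay within 0.13 of each other, 3 of 4 arrays labelled transgenic lay above them, and the difference was 0.32 (SE 0.195, adjusted limma p = 0.813, exact two-sided permutation p = 0.114). It was 0.05 without transgenic replicates 2 and 3. Cdkn2c, which encodes p18, differed by -0.05.

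**Figure D2:**
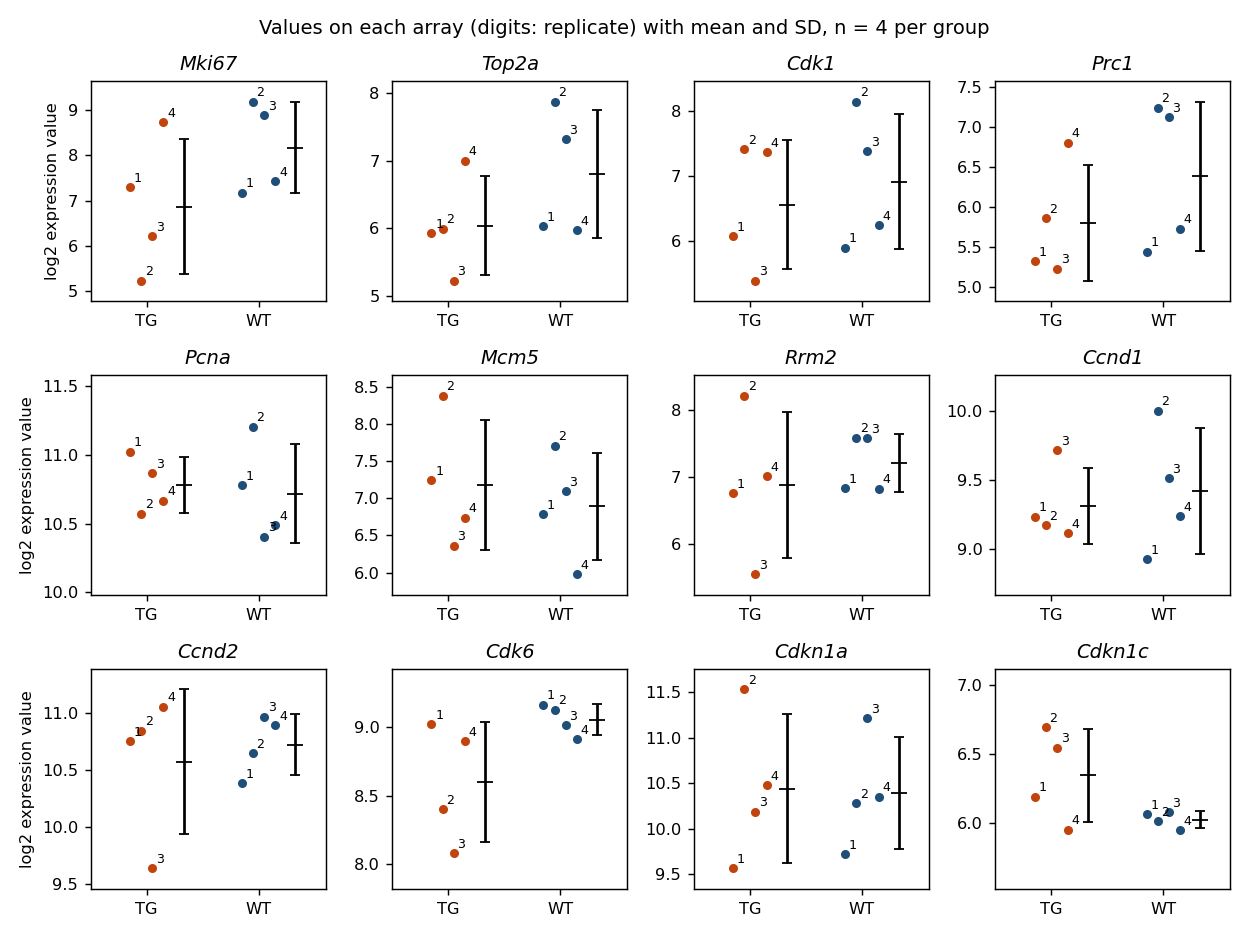
Log2 expression value (vertical axes, each with its own range) of 12 member genes on every array, with the replicate number beside each point, for arrays labelled transgenic (TG, red) and wild type (WT, blue); bars show the group mean and SD, n = 4. In the top row of mitotic genes WT_2 and WT_3 lie high and WT_1 and WT_4 low, while Cdk6 and Cdkn1c have a narrow wild-type group and a wide transgenic one.

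The 11 genes of the S phase class had a median difference of 0.03, with 7 higher and 4 lower, and the median stayed between -0.14 and 0.12 when any single array was left out. These genes build the replication fork and its supply of nucleotides. Pcna, the sliding clamp of DNA polymerase, had 11.02, 10.57, 10.87 and 10.67 in the arrays labelled transgenic and 10.78, 11.20, 10.40 and 10.49 in the wild type. The wild-type range enclosed all 4 arrays labelled transgenic, and the difference was 0.06 (95% confidence interval -0.43 to 0.56), or -0.04 without wild-type replicate 3.

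The Mcm2 to Mcm7 proteins form the ring-shaped helicase that opens the DNA at an origin. Mcm4 had 6.96, 4.92, 6.68 and 6.61 against 7.11 or more in wild-type replicates 2, 3 and 4 and 6.79 in wild-type replicate 1. The difference of -0.75 (SE 0.416, adjusted limma p = 0.813, exact two-sided permutation p = 0.0571) was the largest of the class, and it was -0.29 without transgenic replicate 2, whose value was the lowest by far. Mcm5 had 7.24, 8.38, 6.36 and 6.74 against 6.79, 7.71, 7.10 and 5.98, a difference of 0.29 (SE 0.493) with a 3.32-fold range among the wild-type arrays. It was -0.11 if transgenic replicate 2 was left out and -0.02 if wild-type replicate 4 was. Mcm3, Mcm6 and Mcm7 differed by 0.11, -0.15 and 0.11, and the sign of each turned when some single array was left out. Mcm2 was the member nearest below the filter, with 4.89, 5.20, 4.77 and 4.82 against 4.82, 5.18, 4.82 and 4.80.

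Ribonucleotide reductase, whose subunits are encoded by Rrm1 and Rrm2, makes the deoxynucleotides for replication. Rrm2, the subunit that cells make in S phase, had 6.76, 8.22, 5.55 and 7.01 in the arrays labelled transgenic and 6.83, 7.59, 7.58 and 6.83 in the wild type. Transgenic replicates 2 and 3 lay above and below all other arrays, and the difference of -0.32 (SE 0.510) became 0.12 without replicate 3. Rrm1 differed by 0.03, and by 0.54 on a second probe set above the filter. Cdc6, which loads the helicase, and Tyms, which makes thymidylate, were below the filter, with no array above 5.

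The 18 genes of the mitotic class had a median difference of -0.31, with 4 higher and 14 lower. Among the 10 above the filter 9 were lower, with a median of -0.36, while a difference below 0 was found in 43% of all genes tested and in 28.8% of all genes without the filter. The size of this lean to the negative side depended on single arrays. The median of the 18 genes was -0.01 if transgenic replicate 3 was left out and -0.04 if wild-type replicate 2 was. It was -0.53 in the absence of transgenic replicate 4 and -0.51 in the absence of transgenic replicate 2. Without both transgenic replicates 2 and 3 it was -0.20, and it stayed below 0 whichever single array was left out. A difference larger than the SD of the wild-type arrays was found in 2 of the 18 genes, Mki67 and Aurkb, and in 9 of all 42 members, against 48% of all genes. Among members above the filter it was found in 8 of 30, against 58.2%.

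Mki67, the gene of the Ki-67 protein by which dividing cells are stained in tissue sections, had 7.30, 5.23, 6.21 and 8.73 in the arrays labelled transgenic and 7.18, 9.18, 8.89 and 7.43 in the wild type. Transgenic replicate 4 sat with wild-type replicates 2 and 3, transgenic replicate 1 sat with wild-type replicates 1 and 4, and transgenic replicates 2 and 3 were lower than any wild-type array. The means were 6.87 ± 1.5 and 8.17 ± 1.01 (SD, n = 4 each). The difference of -1.30 (95% confidence interval -3.05 to 0.45, adjusted limma p = 0.813, exact two-sided permutation p = 0.171) was the largest of all members, and it was -0.16 without transgenic replicates 2 and 3. Without transgenic replicate 4 it was -1.92, with an unadjusted limma p of 0.0201 and an adjusted p of 0.645.

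Top2a, the topoisomerase that untangles chromosomes before they separate, had 5.93, 6.0, 5.23 and 7.0 against 6.03, 7.87, 7.32 and 5.97. Cdk1, the kinase that drives entry into mitosis, had 6.07, 7.41, 5.38 and 7.36 against 5.89, 8.14, 7.37 and 6.23. Prc1, which bundles microtubules in the middle of the dividing spindle, had 5.32, 5.86, 5.23 and 6.81 against 5.44, 7.25, 7.13 and 5.73. In each of these 3 genes transgenic replicate 4 and wild-type replicates 2 and 3 were high, and transgenic replicates 1 and 3 and wild-type replicates 1 and 4 were low. Transgenic replicate 2 was with the high arrays in Cdk1, where only wild-type replicate 2 exceeded it, and nearer the low ones in Top2a and Prc1. The differences of Top2a, Cdk1 and Prc1 were -0.76 (SE 0.516), -0.36 (SE 0.615) and -0.58 (SE 0.512). When single arrays were left out they ran from -1.08 to -0.40, from -0.70 to 0.05 and from -0.92 to -0.29, so that the sign for Cdk1 turned without transgenic replicate 3 or wild-type replicate 2. Birc5, which encodes survivin, a subunit of the complex that corrects chromosome attachment, had 5.13, 6.81, 4.29 and 6.19 against 4.79, 6.92, 6.57 and 5.60, the same order with transgenic replicate 2 high as in Cdk1.

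The promoters of Mki67, Top2a, Cdk1 and Prc1 are shown because, with transgenic replicate 2 set aside, these genes had their 3 highest values on the same arrays. They were picked among such genes as windows with motif matches. The windows run from 250 bases before the RefSeq start to 50 bases after it, 5′ to 3′ in the direction of the gene, on the mouse build GRCm38.p6. They lie at chr7:135716330-135716629 on the minus strand for Mki67, chr11:99024140-99024439 on the minus strand for Top2a, chr10:69352863-69353162 on the minus strand for Cdk1 and chr7:80294201-80294500 on the plus strand for Prc1. Capitals mark, on either strand, the cell cycle genes homology region or CHR (TTTGAA or TTCGAA), which DREAM and B-Myb complexes bind, and the CCAAT box, which the factor NF-Y binds.
Mki67: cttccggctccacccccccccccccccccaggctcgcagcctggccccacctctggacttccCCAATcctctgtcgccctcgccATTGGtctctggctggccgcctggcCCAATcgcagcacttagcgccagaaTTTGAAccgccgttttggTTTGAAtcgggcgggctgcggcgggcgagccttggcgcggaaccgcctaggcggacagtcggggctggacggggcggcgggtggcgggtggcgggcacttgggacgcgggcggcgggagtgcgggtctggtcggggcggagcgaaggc
Top2a: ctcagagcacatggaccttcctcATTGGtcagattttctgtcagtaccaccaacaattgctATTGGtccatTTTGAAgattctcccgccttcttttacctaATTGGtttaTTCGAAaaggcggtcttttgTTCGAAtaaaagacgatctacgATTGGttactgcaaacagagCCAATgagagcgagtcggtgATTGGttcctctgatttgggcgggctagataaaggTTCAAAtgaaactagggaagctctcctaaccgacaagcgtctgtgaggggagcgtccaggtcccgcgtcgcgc
Cdk1: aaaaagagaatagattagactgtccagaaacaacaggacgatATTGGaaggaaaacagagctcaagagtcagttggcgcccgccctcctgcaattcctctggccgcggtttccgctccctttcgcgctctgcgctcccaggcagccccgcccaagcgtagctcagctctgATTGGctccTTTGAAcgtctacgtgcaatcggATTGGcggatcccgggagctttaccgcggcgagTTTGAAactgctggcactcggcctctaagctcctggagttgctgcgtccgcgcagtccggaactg
Prc1: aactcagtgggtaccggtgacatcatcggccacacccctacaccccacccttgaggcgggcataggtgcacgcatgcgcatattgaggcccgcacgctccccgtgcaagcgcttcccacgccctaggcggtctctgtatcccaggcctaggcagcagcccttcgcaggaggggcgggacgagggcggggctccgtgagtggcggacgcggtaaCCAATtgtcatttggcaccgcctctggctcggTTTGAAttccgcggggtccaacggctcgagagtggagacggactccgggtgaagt
The Mki67 and Cdk1 windows held 2 CHR and 3 CCAAT matches each, Top2a held 4 and 6, and Prc1 held 1 and 1, with no overlap between the 2 motifs. The windows of Birc5, Mad2l1 and Nusap1, which had their 3 highest values on those arrays too, held 0 CHR and 0 CCAAT matches.

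Promoter windows were found for 34 of the 43 members. Windows were not used here for Ccnd1, Ccnd2, Ccne2, Cdkn1c, Mcm4, Ccna2, Aurkb, Kif20a and Tpx2. The 16 windows of the mitotic class came from 15 genes. They included that of Ccnb1, with 0 CHR matches, and overlapping windows of Prc1 that held 1 each. A CHR match stood in 12 of these 16 windows (75%), against 19.2% of all 32851 windows. It stood in 2 of 11 windows of the S phase class (18.2%) and in 0 of 12 of the G1/S class. A CCAAT match stood in 81.2%, 81.8% and 33.3% of these windows in the same order, against 37.4% of all. For the E2F letters TTTCCCGC, TTTGGCGC or TTTCGCGC the shares were 6.25%, 45.5% and 8.33%, against 1.84% of all, so that the S phase class held them most often. CACGTG or CACGCG, letters of sites that Hey proteins can bind, stood in 12.5%, 9.09% and 33.3%, against 15.4% of all. All motifs were sought on both strands, and a match describes letters in the window, not binding.

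In the other mitotic genes above the filter the same 3 arrays were high when transgenic replicate 2 was set aside. Ccna2, which encodes cyclin A2, had 5.29, 6.30, 4.08 and 6.33 against 4.92, 7.15, 6.38 and 5.61, a difference of -0.51. Ccnb2, which encodes cyclin B2, had 5.71, 7.91, 5.09 and 7.35 against 5.84, 7.52, 6.94 and 5.47, and at 0.07 it was the only member of the class above the filter with a mean difference over 0. Cdc20, the activator of the complex that degrades cyclin B, had 7.41, 9.67, 6.66 and 8.31 against 7.41, 8.64, 8.81 and 7.91, a difference of -0.18. When single arrays were left out, the differences of Ccna2, Ccnb2 and Cdc20 ran from -0.88 to -0.04, from -0.39 to 0.55 and from -0.73 to 0.27. In these 3 genes transgenic replicate 2 lay with the high arrays, unlike in Mki67. The checkpoint genes Bub1b and Mad2l1, which hold mitosis until chromosomes are attached, had the narrowest wild-type ranges of the 10 genes above the filter and differed by -0.04 and -0.18.

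The 8 mitotic members below the filter were Aurka, Aurkb, Plk1, Bub1, Kif11, Kif20a, Nusap1 and Tpx2, which encode kinases, motors and microtubule-binding proteins of the spindle. Nusap1 had 3.33, 3.35, 3.33 and 5.18 in the arrays labelled transgenic and 3.38, 5.75, 5.37 and 3.41 in the wild type. Tpx2 had 3.68, 3.70, 3.69 and 5.12 against 3.66, 5.49, 4.59 and 3.70. Both genes thus stood above a common low level only in transgenic replicate 4 and wild-type replicates 2 and 3, the arrays in which Mki67 was high. Aurkb, the Aurora kinase of the chromosome passenger complex, had 3.79, 5.73, 3.69 and 3.79 against 3.68, 3.92, 3.84 and 3.81. On this kept probe set transgenic replicate 2 alone stood out, and the difference was 0.44. A second Aurkb probe set, below 5 on every array, was highest in wild-type replicate 2 and differed by -0.09. With transgenic replicate 2 set aside, only wild-type replicate 2, at 4.70, stood clear of the rest on it. Transgenic replicate 4 at 3.61 and wild-type replicate 3 at 3.504 came next, the latter hardly above transgenic replicate 3 at 3.495. Kif11, the motor that pushes spindle poles apart, was the next below the filter after Mcm2, with 4.23, 3.52, 4.25 and 4.61 against 4.13, 4.87, 4.58 and 4.25.

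**Figure D3:**
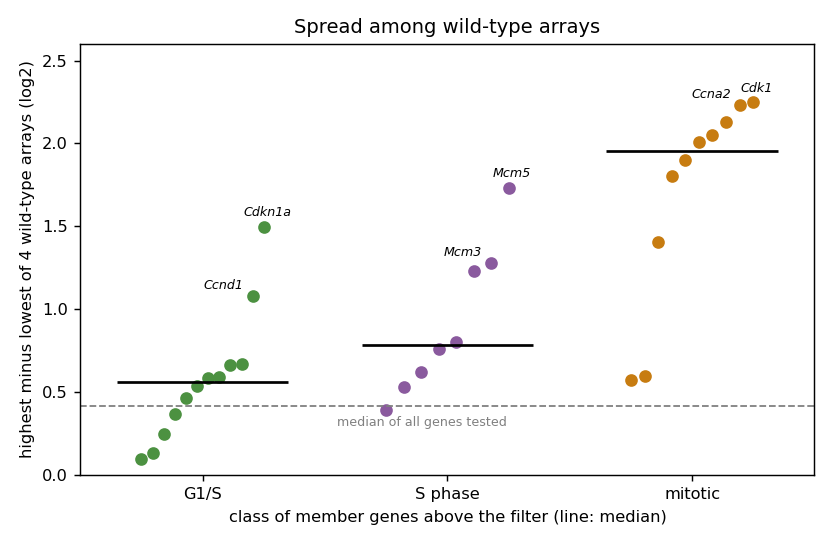
Highest minus lowest log2 value among the 4 wild-type arrays (vertical axis) for each of the 30 member genes above the filter, by class (points), with the class median (black line) and the median of all 9607 genes tested (dashed line). The class medians are 0.56, 0.78 and 1.95, and 8 of the 10 mitotic genes lie above 1, a 2-fold range.

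Within the wild-type group alone, which the comparison of genotypes does not touch, mitotic genes spread more widely than the other members. The median distance between the highest and the lowest wild-type array was 1.95 on the log2 scale for the 10 mitotic genes above the filter, 0.78 for the 8 of S phase and 0.56 for the 12 of G1/S, against 0.42 for all genes tested. The distance exceeded 1, which is 2-fold, in 8 of the 10 mitotic genes and in 7.02% of all genes. The highest wild-type array exceeded the lowest by 4.75-fold for Cdk1, 4.69-fold for Ccna2, 4.37-fold for Birc5 and 4.02-fold for Mki67. In all 10 mitotic genes this wild-type distance was larger than the difference between the groups, and so it was in 26 of the 30 members and in 7107 of all 9607 genes tested. Among the arrays labelled transgenic the median distance of the mitotic genes was 2.14, or 1.84 without replicate 2, against 1.10 and 0.45 for all genes.

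The same arrays were high in gene after gene. Transgenic replicate 2 was set aside for this count because it stood apart from the rest, and the 3 arrays were named after their values were seen. Wild-type replicates 2 and 3 and transgenic replicate 4 held the 3 highest values of the other 7 arrays in 16 of the 18 mitotic genes, all but Aurkb and Bub1, and in all 10 above the filter. The same held for 2.34% of all genes and 3.15% of those tested. In the S phase class it held for 2 of 11 genes and in the G1/S class for 1 of 13. Over all 8 arrays wild-type replicate 2 was the highest in 12 of the 18 mitotic genes, against 2.94% of all 18193 genes, and transgenic replicate 3 the lowest in 9, against 14.5%.

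The median of the 18 mitotic genes, taken as the log2 distance from each gene's wild-type mean, was -0.75, 0.20, -1.14 and 0.26 in the 4 arrays labelled transgenic and -0.73, 1.04, 0.33 and -0.50 in the 4 wild-type arrays. Each group thus contained arrays with high and with low mitotic levels. For the S phase class these medians were -0.02, 0.44, -0.36 and -0.09 against 0.06, 0.28, -0.02 and -0.35. For the G1/S class no array was farther than 0.34 from the wild-type mean. The distance between high and low arrays was therefore widest in the mitotic genes and narrowest in the G1/S genes.

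**Figure D4:**
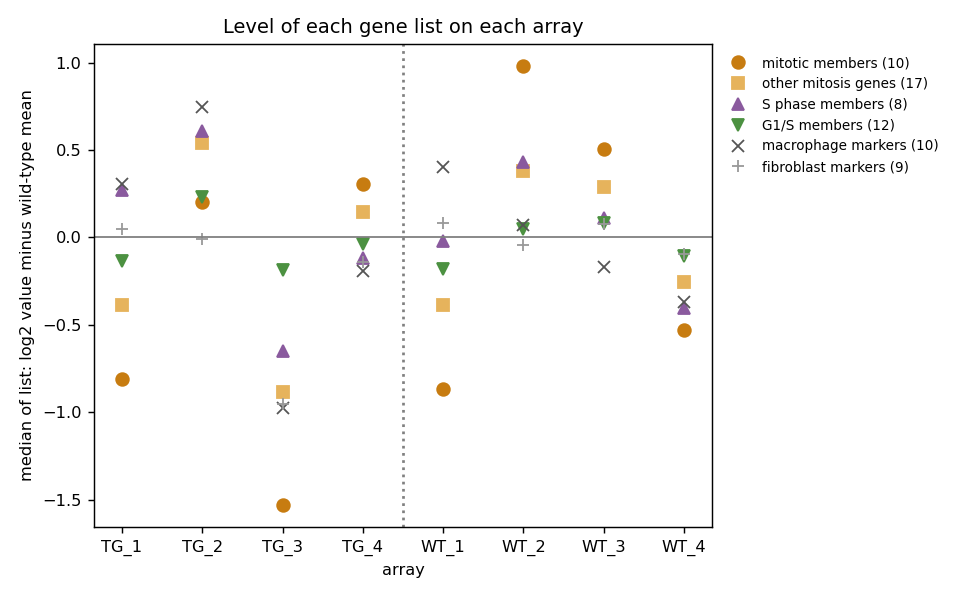
Median log2 distance from the wild-type mean (vertical axis) on each array (horizontal axis) of 6 gene lists, counting genes above the filter, with the number of genes in brackets; the dotted line parts the groups. The mitotic members run from -1.53 in TG_3 to 0.98 in WT_2 and the other mitosis genes follow the same order in the wild-type arrays, while the macrophage markers are highest in TG_2 and WT_1.

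Marker genes of the cell types in the tissue are given beside this order. The summed level of 10 macrophage and monocyte markers, as the log2 of the summed linear values, was 14.11, 14.02 and 13.87 in wild-type replicates 2 and 3 and transgenic replicate 4, within the 13.02 to 14.41 of the 4 arrays with low mitotic levels. The sum of 9 fibroblast markers was 16.53 to 16.84 in the former and 14.76 to 16.85 in the latter. Transgenic replicate 3, the lowest array for 9 of the 18 mitotic genes and for 8 of the 10 above the filter, also had the lowest sums of both lists, at 13.02 and 14.76. The endothelial sum, over 7 markers, was highest among the 7 arrays in wild-type replicate 2, at 12.47, where the other 6 had 11.93 to 12.29. The part of these cell types in the mitotic levels was not tested. The distance between the 3′ and 5′ control probe sets is a sign of RNA quality. For Actb it was 0.78 to 1.21 in the 3 high arrays and 0.85 to 1.15 in the 4 low ones. In transgenic replicate 2 it was 0.62, the lowest of the 8 arrays. For Gapdh the distance lay between -0.28 and -0.11 on all 8 arrays.

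Other genes of the cycle were read from 4 further lists, in each of which 0 genes passed limma's test and 0 had an unadjusted p under 0.05. Of 33 other mitosis genes, such as those of the kinetochore and of condensin, 23 (69.7%) had their 3 highest values in wild-type replicates 2 and 3 and transgenic replicate 4 among the same 7 arrays. Of the 17 above the filter 6 were higher and 11 lower, with a median difference of -0.15 that lay between -0.40 and 0.09 when single arrays were left out. Smc2 and Smc4, the core subunits of condensin, had the largest differences, -1.15 (SE 0.668) and -1.09 (SE 0.618), both with an adjusted limma p of 0.813. Both had their lowest value in transgenic replicate 2, at 3.95 and 6.52, and the differences were -0.44 and -0.42 without it. Ncapd2, another condensin subunit, differed by 0.41.

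The list of the retinoblastoma, E2F and DREAM regulators had 10 of 18 genes above the filter, 3 higher and 7 lower, with a median difference of -0.29. Without transgenic replicate 2, which held the lowest value of 7 of the 10, the median was -0.04. The DREAM subunits Lin54 and Lin37 differed by -0.88 (SE 0.538) and 0.50 (SE 0.283) and the repressor E2f6 by 0.32 (SE 0.189), each with an adjusted limma p of 0.813. In the absence of transgenic replicate 2, Lin54 and Lin37 differed by -0.29 and 0.22. The list of other replication genes had 14 of 26 above the filter, 8 higher and 6 lower, with a median of 0.18 that was 0.04 when transgenic replicate 2 was left out. Dut, which removes dUTP from the nucleotide pool, differed by 0.56 (SE 0.326), the single-strand binding protein gene Rpa2 by 0.53 (SE 0.398; 0.13 in the absence of that array) and the primase gene Prim1 by -0.40 (SE 0.289). Genes of checkpoints and growth arrest, 15 of 17 above the filter, were 8 higher and 7 lower with a median of 0.08, which was -0.05 if transgenic replicate 2 was left out and -0.01 if wild-type replicate 2 was. Their smallest p-values were those of Chek2, a kinase of the DNA damage checkpoint, which differed by 0.39 (SE 0.271), of Tob1, an antiproliferative gene, by -0.36 (SE 0.297), and of Cdc25a, a phosphatase that activates Cdk2, by 0.16 (SE 0.149).

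**Figure D5:**
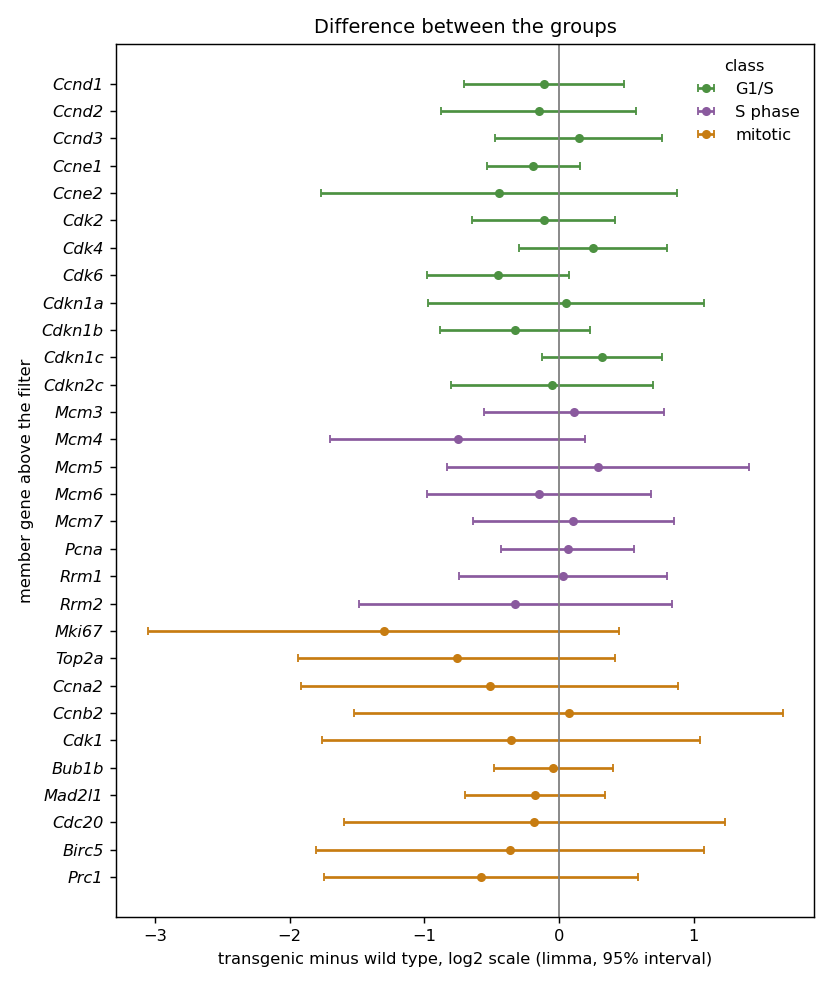
Difference between the group means, arrays labelled transgenic minus wild type (horizontal axis, log2 scale), for the 30 member genes above the filter, with limma's 95% confidence interval as bars and the class as colour, n = 4 arrays per group. All 30 intervals include 0, and they are widest for Mki67, Ccnb2 and other mitotic genes and for Ccne2.

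Several members are read by more than 1 probe set. Of 12 members with at least 2 probe sets above the filter, the probe sets disagreed in sign for Ccnd1, Ccnd2, Cdc20 and Mcm6, in which the differences ran from -0.16 to 0.07, from -0.55 to 0.15, from -0.18 to 0.19 and from -0.15 to 0.06. In the other 8 all probe sets of a gene had the same sign, as for Mcm4 (-0.75 and -0.47) and Ccna2 (-0.51 and -0.90). For 10 members the kept probe set is of a design that can match other transcripts.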

How the data were processed

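The 43 members, their classes and all gene lists were chosen with earlier results of these data known. Groups came from the sample titles. The authors deposited log2 expression values of 8 arrays, and per the submitters' processing notes they were made with GCRMA, which corrects background by probe sequence, normalizes by quantiles and summarizes probes. The GCRMA version was not given in the sources used here. Probe sets with no signal end at a shared low value under this method, so differences there have little meaning. The values lay between 0.84 and 16.11, with array medians of 3.33 to 3.43, and 16984 to 18028 of 45101 probe sets above 5 per array. There is no read depth, and 4 arrays per group limit the precision.

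The 64 control probe sets were left out. In the platform annotation 34945 other probe sets had 1 gene symbol, and 932 probe sets had several and were not used. Of all 45101 probe sets, controls included, 9211 had no row there. Entrez identifiers matched 34741 and changed 0 symbols. Probe sets above 5 on at least 4 of the 8 arrays were kept, whatever the group, and for each gene the one with the highest mean. The model was fitted over 9607 genes with R 4.3.3 and limma 3.58.1 (lmFit, then eBayes without trend, no block), with Benjamini-Hochberg adjustment at 0.05. Single members were also given an exact two-sided permutation test over the 70 ways to split the arrays. Members below the filter were described without the fit. Values on every array were given for 17 genes of a panel chosen with the members, for the 3 of each class with the smallest p, for those nearest the filter and, chosen after their values were seen, for Ccna2, Ccnb2, Cdc20, Nusap1 and Tpx2. Up to 3 genes of each further list were named by the smallest p.

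On simulated data with 9607 genes and independent noise, the fit recovered 31 of 100 genes given a change of 1 on the log2 scale. It recovered 75 of 100 given a change of 2, and called 5 of 9407 unchanged ones. Promoter windows came from a RefSeq table of build GRCm38.p6 and were searched with Python 3.11.15. Alternatives changed the filter, scaling, model, probe set rule, test and threshold and left out arrays.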

Additional observations from a re-analysis of the deposited data

Results flagged for a closer look

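In 7 of the 84 groups of 4 arrays formed by 42 members, a single array lay beyond Dixon's 95% limit from the other 3. The nominal rate is about 1 in 20, for independent groups, and genes read on the same arrays are not independent. The share over all genes was not taken, so no excess in the members is read from this count. In transgenic replicate 2, 37.2% of all genes tested lay more than 2-fold out. That array accounted for 3 of the 7 groups: Ccnd3 at 11.09 (others 9.98 to 10.15), Tyms at 3.45 (3.06 to 3.11) and Aurkb at 5.73 (3.69 to 3.79). In transgenic replicate 4, Nusap1 was 5.18 (3.33 to 3.35) and Tpx2 was 5.12 (3.68 to 3.70). In the wild-type group, Mcm2 was 5.18 in replicate 2 (4.80 to 4.82) and Mcm4 was 6.79 in replicate 1 (7.11 to 7.18). All but Ccnd3 and Mcm4 are below the filter.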

How the results depend on the processing

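With array weights, which give less weight to arrays that fit poorly, limma passed 1 gene, no member, with 1529 genes at an unadjusted p under 0.05. Under every other alternative run 0 genes passed, and 0 members passed in any. The unadjusted gene count ran from 34 to 541 when single arrays were left out, and was 363 without the filter. Member values with an unadjusted p under 0.05 came from array weights (Ccne1 -0.24, Cdkn1a -0.77, Cdc20 -0.71), from leaving out transgenic replicate 1 (Cdk6 -0.59) and from leaving out transgenic replicate 4 (Cdkn1c 0.45, Mki67 -1.92). The median of the G1/S class ran from -0.18 to 0.12 when single arrays were left out, that of the S phase class from -0.14 to 0.12 and that of the mitotic class from -0.53 to -0.01. Of 364 values of 19 named members under alternatives, 22 in 10 members had the other sign and 0 passed. The values of any 2 arrays had correlations between 0.788 and 0.992 over the genes tested. A separate check of pairing did not use those values as they stand. It gave coefficients of 0.30, -0.01, -0.33 and 0.20 for arrays of equal replicate number, the best match in 2 of 4. With 4 numbers this cannot decide whether the arrays are paired. A replicate block passed 0 genes, with 147 unadjusted, and 0 members.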
